A study of Homo sapiens with 120 samples.

Results

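GDF15, growth differentiation factor 15, is 1 of the 19775 genes with a probe set of their own on these arrays, and 1 of the 14023 bright enough to be tested. It has 3 probe sets among the 54675 on the array, and it is represented here by 221577_x_at, the one with the highest mean over all arrays. Its level is described for 5 chemicals, 3 doses of each and 2 times, always against untreated cells of the same set of arrays and the same time.

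GDF15 encodes a secreted, stress-induced protein of the transforming growth factor beta (TGF-beta) superfamily, which is made as a precursor, cleaved and released as a dimer. In the body it acts as a hormone on hindbrain neurons through the receptor GFRAL and its co-receptor RET, and lowers food intake. Inside stressed cells the gene is known to be switched on after DNA damage, and it is a known target of the transcription factors ATF4 and CHOP (encoded by DDIT3), which act in the integrated stress response when translation is slowed.

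The study measured total RNA of TK6, an established human B lymphoblastoid cell line, on 120 Affymetrix HG-U133 Plus 2 arrays. Cells received formaldehyde (FA, 50, 100 or 200 µM), an aldehyde that crosslinks DNA and protein, methyl methanesulfonate (MMS, 80, 160 or 320 µM) or ethyl methanesulfonate (EMS, 1, 2 or 4 mM), which alkylate DNA, or colcemid (COL) or vincristine (VCR), which bind tubulin and block the mitotic spindle. Each chemical had its own untreated arrays, cells were taken after 4 h or 24 h, and each of the resulting 40 groups held 3 arrays numbered as experiments 1 to 3. The labels give colcemid and vincristine as 1, 2 and 4 µg/ml, but as 001, 002 and 004 in the titles, so a lost decimal point is possible, and the text names these doses by their order only. All groups share the single cell line. The labels do not say whether the numbered experiments came from separate cultures, and p-values measure the spread between them. In these bulk samples, more cells making GDF15 and more of its RNA per cell cannot be told apart.

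The arrays carried the labelled cell type: all 11 B cell markers with a probe set had a median at or above 6.183, the limit of brightness used for testing, with HLA-DRA at 13.78. Of the markers of other cells, 3 of 8 for T and NK cells, 3 of 7 for monocytes and granulocytes and 5 of 9 for epithelium and fibroblasts had a median at or above it. Array medians lay between 6.133 and 6.243. Among untreated cells of the formaldehyde set at 4 h, the array of experiment 3 stood farthest of all from its own group, with a mean correlation of 0.994, and results that changed without it say so.

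The gene lies on the plus strand of chromosome 19. The 250 bases before its start in the RefSeq table for GRCh38.p14 (chr19:18385908-18386157) are shown because the factors described with the results, the ATF4 arm among them, act on such regions. Capitals mark a TATA box (TATAAA) from base -29 to base -24, counted back from the start, and GC boxes (GGGCGG, read on the minus strand as CCGCCC) from -70 to -65 and from -119 to -114.
GDF15 upstream: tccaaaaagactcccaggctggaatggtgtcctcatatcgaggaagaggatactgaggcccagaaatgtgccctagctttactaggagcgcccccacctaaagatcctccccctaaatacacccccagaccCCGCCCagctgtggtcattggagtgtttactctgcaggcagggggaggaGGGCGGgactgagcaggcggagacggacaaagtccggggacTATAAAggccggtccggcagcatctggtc

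Motifs of the ATF4 arm and of early response factors were searched on both strands of the promoter window of the same table, which also holds the first transcribed bases. The C/EBP-ATF element TGATGNAAN, the cAMP element TGACGTCA, its shorter form TGACGNNN (which includes the full one), the AP-1 site TGANTCA and the EGR1 site GCGNGGGCG (which overlaps the GC box) had no match there. They were present in 3.61%, 1.85%, 24.4%, 7.71% and 9.43% of promoters. The GC box was present in 45.0% of promoters and the TATA box in 11.5%. A match is a description of letters, and regulatory sites elsewhere in the gene were not examined.

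Untreated cells gave the baseline. In the formaldehyde set GDF15 had a log2 signal of 8.30, 8.17 and 8.26 in experiments 1 to 3 at 4 h, and of 7.74, 7.95 and 7.76 at 24 h. In the MMS set it was 8.48, 8.42 and 8.46 at 4 h, and 7.54, 7.49 and 7.34 at 24 h. The later arrays were lower in both sets, with no overlap between times. The EMS set read 8.59, 8.57 and 8.46 at 4 h and 7.67, 7.66 and 7.69 at 24 h. The colcemid set read 8.48, 8.32 and 8.43, then 7.76, 7.95 and 7.94, and the vincristine set 8.30, 8.14 and 8.12, then 7.37, 7.88 and 7.82. Again every array at 24 h lay under every array at 4 h of its set, and the first vincristine experiment was the lowest of its group.

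The untreated difference between times was called in all 5 sets, a call meaning an adjusted p under 0.05 over all genes tested. In the formaldehyde set GDF15 changed by -0.43 log2 units (adjusted p = 0.0144, SE 0.128), where 29.5% of genes were called, and 2 of the 3 fits that left out an experiment lost that call (adjusted p up to 0.107). It changed by -0.996 in the MMS set (adjusted p = 1.01e-10, 32.2% of genes called) and by -0.87 in the EMS set (5.96e-10, 29.9%). It changed by -0.53 in the colcemid set (adjusted p = 3.11e-05, 35% of genes called) and by -0.49 in the vincristine set (0.000837, 32.9%), where it was -0.28 without experiment 1 (adjusted p = 0.0445). Over the 15 pairs of arrays with the same set and experiment, all 15 were lower at 24 h, by a mean of -0.66 ± 0.295 (SD, n = 15), with a range from -1.12 to -0.22. With the mean of all 3 probe sets in place of the brightest, the formaldehyde and vincristine sets gave -0.058 and -0.158 and were not called (adjusted p = 0.55 and 0.0534). The two-sided permutation p over the 15 pairs was 6.1e-05, the smallest that 32768 sign changes can give. That test took the 15 pairs as independent, but they are 3 experiments in each of 5 sets. The labels do not establish separate cultures, and the p does not measure the spread between sets. In these 5 untreated comparisons 19 to 26 of 37 tested genes of the DNA damage response were called lower and 2 or 3 higher.

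GDF15 spanned 5.83 log2 units over the 120 arrays, or 57-fold, from 7.34 to 13.17. The highest group mean was that of 4 mM EMS at 24 h, 13.08 ± 0.077 (SD, n = 3), followed by 320 µM MMS (12.79 ± 0.064), 160 µM MMS (12.09 ± 0.075), 200 µM formaldehyde (11.89 ± 0.085) and 2 mM EMS (11.13 ± 0.035), all at 24 h. Each of these differed from the next by more than the larger SD of the neighbours. Then came the highest levels at 4 h, those of 320 µM MMS (10.87 ± 0.063), 4 mM EMS (10.66 ± 0.065) and 100 µM formaldehyde (10.57 ± 0.167), of which the last pair did not differ beyond their spread.

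The 18 arrays of colcemid and vincristine at 24 h formed a narrow band between 9.51 and 10.49, with a median of 9.97. The 18 MMS and EMS arrays at 24 h ran from 9.88 to 13.17, with a median of 11.59. From rank 24 to rank 39 of the 40 groups no neighbours differed beyond their spread: those ranks held the 6 groups treated with colcemid or vincristine for 4 h, 50 µM formaldehyde at 24 h and 9 of the 10 untreated groups. Untreated cells of the MMS set at 24 h were the lowest group, at 7.46 ± 0.106. Levels set side by side across chemicals rest on the deposited normalization of separate sets.

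**Figure D1:**
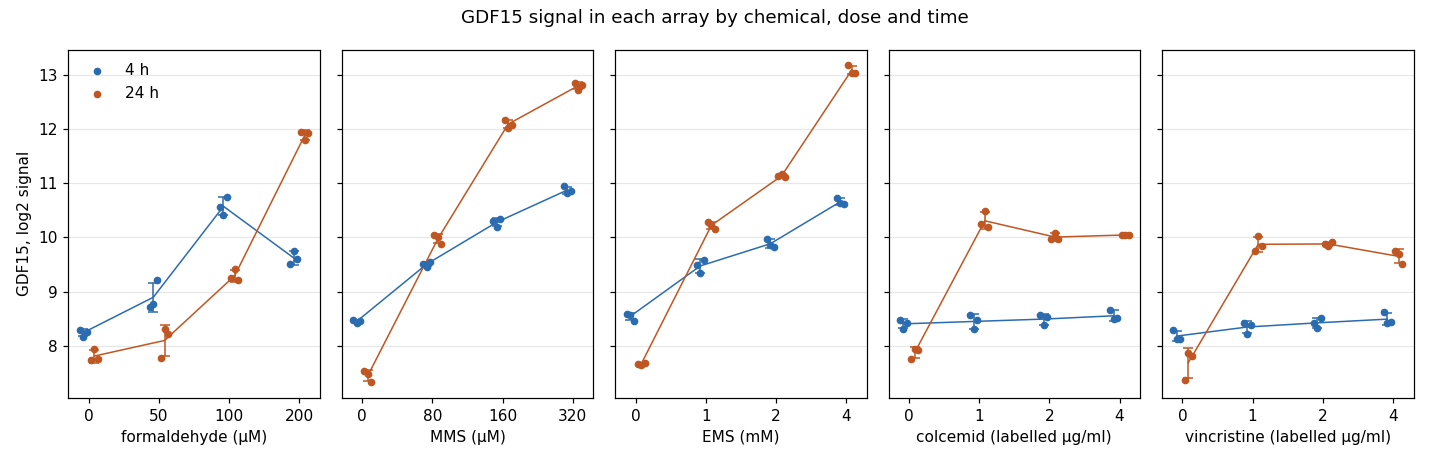
GDF15 log2 signal in each of the 120 arrays (vertical axis) against dose (horizontal axis), with 1 panel for each chemical; points are arrays, lines join group means and bars are ± 1 SD (n = 3). The treated 4 h points (blue) of colcemid and vincristine stay between 8.23 and 8.67, while their treated 24 h points (orange) lie between 9.51 and 10.49, and the MMS and EMS points climb with dose at both times.

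Against untreated cells of the same set and time, GDF15 was called higher in 23 of 30 comparisons and lower in 0 by limma, and at an unadjusted p under 0.05 it was higher in 26 and lower in 0. The other 7 were the 6 comparisons at 4 h of colcemid and vincristine and 24 h of 50 µM formaldehyde. No gene was called higher in more comparisons, and CDKN1A and BLOC1S2 were called higher in as many. GDF15 was the gene with the largest rise of all in 7 comparisons and among the 10 largest rises in 21. The next most frequent genes among the 10 largest rises were CYP4F3, whose enzyme oxidizes leukotriene B4, and FAM13C, named after its values were seen, with 14 each, then the DNA damage response genes TP53I3 and TP53INP1 with 11 each. Treated and untreated arrays did not overlap in 26 comparisons, of which 3 were uncalled ones at 4 h of colcemid and vincristine. In 29 comparisons all 3 experiments were higher than their own untreated array. How often this held for other genes is not given, so these counts have no background of all genes beside them. The share of all tested genes called differed widely, from 0% to 58.5%, and is given with each comparison. In the 8 comparisons of any kind in which limma called no gene, 152 to 834 genes had an unadjusted p under 0.05.

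MMS, a methylating agent, raised GDF15 at every dose and both times. At 4 h the log2 signal was 9.52, 9.46 and 9.55 with 80 µM, 10.30, 10.20 and 10.34 with 160 µM and 10.94, 10.82 and 10.86 with 320 µM. The 3 dose groups and the untreated arrays did not overlap, and they lay in the order of dose. The rise was 1.06 on the log2 scale (2.08-fold, SE 0.0602, adjusted p = 1.33e-09) at 80 µM, where 1.6% of all genes were called. It was 1.83 (3.55-fold, adjusted p = 2.93e-14) at 160 µM with 13.5% of genes called, and 2.42 (5.35-fold, 9.67e-17) at 320 µM with 28.6% called. At the lower doses no gene rose more, and at 320 µM GDF15 had the fifth largest rise, behind HMOX1 (2.70), the heme-degrading oxidative stress enzyme that led.

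At 24 h of MMS the arrays read 10.05, 10.001 and 9.88 with 80 µM, 12.17, 12.02 and 12.08 with 160 µM and 12.85, 12.72 and 12.81 with 320 µM. The groups were again separate and in the order of dose, and the spread within each was small. GDF15 rose by 2.52 (5.75-fold, SE 0.0602, adjusted p = 4.74e-17) at 80 µM, where 28.5% of genes were called. The rise was 4.63 (24.8-fold, adjusted p = 2.26e-22) at 160 µM with 47.3% of genes called, and 5.34 (40.5-fold, 1.27e-23) at 320 µM with 58.5% called. Its rank by size of rise was 3, 2 and 3, and CYP4F3 led at 160 µM (5.07) and 320 µM (5.89).

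The steps between MMS doses were called as well. From 80 to 160 µM GDF15 rose by 0.77 at 4 h (adjusted p = 1.58e-07), where 0.749% of genes were called, and by 2.11 at 24 h (1.73e-15), where 30.3% were. From 160 to 320 µM it rose by 0.59 at 4 h (2.92e-06, 3.79% of genes called) and by 0.71 at 24 h (7.19e-09, 40% called). At 24 h the upper step was the smaller one in all 3 experiments, with 0.68, 0.71 and 0.74 against 2.12, 2.02 and 2.19.

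A sign of RNA quality moved with the late MMS values. The ACTB control probe sets differed between the 3′ and 5′ end by 0.941 ± 0.079 log2 units (SD, n = 3) in untreated cells of the MMS set at 24 h, by 1.06 ± 0.123 at 80 µM, by 1.28 ± 0.008 at 160 µM and by 1.88 ± 0.26 at 320 µM. At 4 h of MMS the groups lay between 0.828 and 0.915, against 0.837 untreated. In the EMS set the same difference was 0.521 ± 0.072 untreated and 0.664 ± 0.034 with 4 mM at 24 h, and in the formaldehyde set 0.481 ± 0.024 untreated and 0.768 ± 0.07 with 200 µM. For colcemid and vincristine at 24 h it was 0.476 to 0.548 treated and 0.463 to 0.54 untreated. Its part in the GDF15 values was not tested.

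EMS, the ethylating relative of MMS, also raised GDF15 at every dose and time. At 4 h the arrays read 9.49, 9.34 and 9.59 with 1 mM, 9.98, 9.85 and 9.82 with 2 mM and 10.73, 10.64 and 10.61 with 4 mM. No dose group overlapped another or the untreated arrays. The rise was 0.93 (1.91-fold, SE 0.0594, adjusted p = 1.46e-08) at 1 mM, where only 0.143% of genes, 20 in number, were called. At 2 mM it was 1.34 (2.53-fold, adjusted p = 1.44e-11) with 1.06% of genes called, and at 4 mM 2.11 (4.33-fold, 1.93e-15) with 9.6% called. GDF15 was the gene with the largest rise and the smallest p at all 3 of these doses.

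At 24 h of EMS the arrays read 10.28, 10.22 and 10.16 with 1 mM, 11.12, 11.17 and 11.10 with 2 mM and 13.17, 13.04 and 13.04 with 4 mM. The groups lay in the order of dose without overlap, and the highest array of the whole series was among those at 4 mM. GDF15 rose by 2.55 (5.86-fold, SE 0.0594, adjusted p = 4.73e-17) at 1 mM, where 24.3% of genes were called. It rose by 3.46 (11-fold, adjusted p = 1.1e-19) at 2 mM with 34.6% of genes called, and by 5.41 (42.5-fold, 1.49e-23) at 4 mM with 51.5% called. It had the second largest rise at 1 and 2 mM, behind TP53I3, a quinone oxidoreductase gene (2.77 and 3.54), and the largest at 4 mM.

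The smallest EMS step at 4 h is the comparison in which GDF15 stood alone. From 1 to 2 mM it rose by 0.41 (SE 0.0594, adjusted p = 0.015) and was the single gene called of 14023, or 0.00713%. That call was lost when any of the experiments was left out (rise 0.359 to 0.497, adjusted p 0.124 to 1) and when all arrays were fitted together (adjusted p = 0.308), and with the mean of the 3 probe sets the step was 0.156 (adjusted p = 1). From 2 to 4 mM at 4 h it rose by 0.78 (2.02e-07, 0.399% of genes called). At 24 h it rose by 0.91 from 1 to 2 mM (7.3e-09, 1.91% called) and by 1.95 from 2 to 4 mM (4.93e-15, 36.9% called). In all 12 comparisons of MMS and EMS with untreated cells, GDF15 had the smallest p of all genes tested. The µM doses of MMS and mM doses of EMS differ, so these values stand side by side without a test between the chemicals.

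Formaldehyde gave a pattern that was not ordered by dose at 4 h. The arrays read 8.72, 8.77 and 9.21 with 50 µM, 10.57, 10.41 and 10.74 with 100 µM and 9.51, 9.75 and 9.60 with 200 µM. The middle dose was thus the highest, and all 3 groups were separate from each other and from the untreated arrays. GDF15 rose by 2.33 (5.02-fold, SE 0.128, adjusted p = 1.1e-11) at 100 µM, more than any other gene, with 40.7% of genes called. At 200 µM it rose by 1.38 (2.6-fold, adjusted p = 1.02e-08), the rank of its rise was 32, and 53.8% of genes were called. The largest rise there was that of ARRDC3 (3.12), a gene of the alpha-arrestin family of adaptor proteins.

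At 50 µM and 4 h GDF15 rose by 0.65 (1.57-fold, adjusted p = 0.0232), with the third largest rise, and 0.82% of genes were called. That call was lost in each alternative that left arrays out: without each of the experiments in turn the rise was 0.505 to 0.771 with an adjusted p of 0.1 to 0.624, and without the outlying untreated array of experiment 3 it was 0.66 with an adjusted p of 0.0634. The rises in single experiments were 0.42, 0.59 and 0.95.

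The difference between doses at 4 h was tested directly. From 50 to 100 µM GDF15 rose by 1.67 (adjusted p = 2.48e-09, 30.2% of genes called). From 100 to 200 µM its change was -0.95 log2 units, or 1.93-fold lower (adjusted p = 3.48e-06, SE 0.128), where 34.9% of genes were called, and it was lower in all 3 experiments (-1.06, -0.65 and -1.14). This was the single called fall among the 20 steps between doses. The 3′ to 5′ difference of ACTB was 0.37 ± 0.021 at 100 µM and 0.367 ± 0.032 at 200 µM.

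At 24 h of formaldehyde the order followed the dose. The arrays read 7.77, 8.31 and 8.23 with 50 µM, 9.24, 9.42 and 9.22 with 100 µM and 11.95, 11.79 and 11.92 with 200 µM. The lowest dose overlapped the untreated arrays, and the other doses did not. The change at 50 µM was 0.29 (95% interval 0.02 to 0.55, adjusted p = 1), and 0% of genes were called there. The rise was 1.48 (2.79-fold, adjusted p = 3.61e-07) at 100 µM, again the third largest, with 3.81% of genes called. It was 4.07 (16.8-fold, adjusted p = 6.33e-16) at 200 µM, the fourth largest, with 47.7% called. The step from 50 to 100 µM was 1.19 (1.35e-05, 1.2% of genes called) and that from 100 to 200 µM 2.59 (1.32e-12, 42.8% called).

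**Figure D2:**
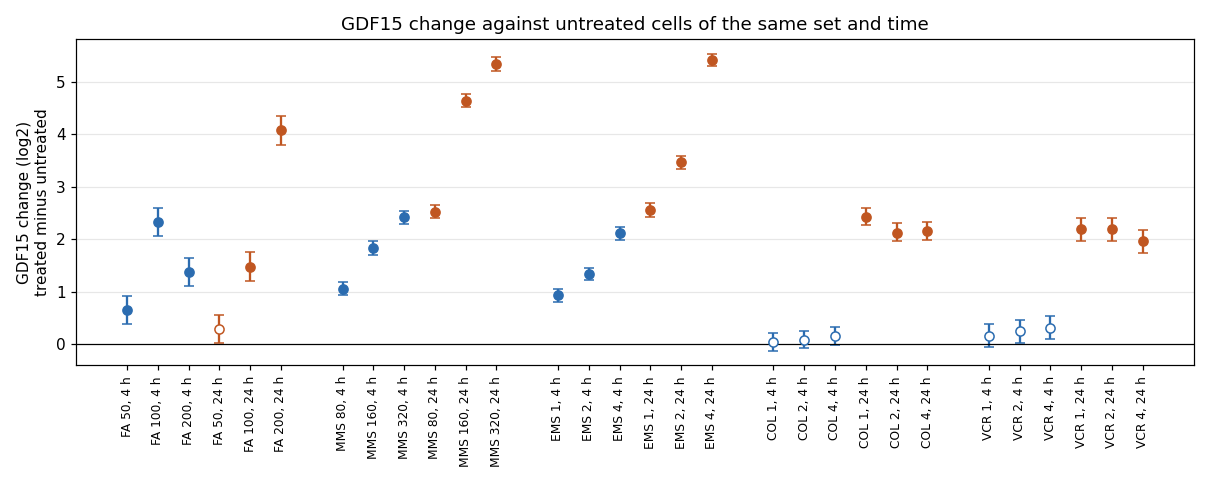
GDF15 log2 change against untreated cells of the same set and time (vertical axis) in the 30 comparisons of chemical, dose and time (horizontal axis; blue 4 h, orange 24 h), with 95% confidence intervals from limma. Filled points were called (adjusted p under 0.05) and open points were not: the 23 filled points all lie above 0, and the 7 open points are those of colcemid and vincristine at 4 h and of 50 µM formaldehyde at 24 h.

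Colcemid and vincristine left GDF15 near the untreated level at 4 h. With colcemid the arrays read 8.58, 8.31 and 8.47 at the lowest labelled dose, 8.58, 8.38 and 8.53 at the middle and 8.67, 8.49 and 8.51 at the highest. The changes were 0.04 (95% interval -0.12 to 0.21, adjusted p = 1, 0% of genes called), 0.09 (-0.08 to 0.26, adjusted p = 1, 0.0642% called) and 0.15 (-0.02 to 0.32, adjusted p = 0.706, 0.913% called). None was called, and the intervals reach up to 0.32. The highest dose lay above the untreated arrays without overlap, but how many other genes did so is not given. IFFO2, an intermediate filament family gene, rose most at the highest dose (1.16).

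With vincristine at 4 h the arrays read 8.43, 8.23 and 8.39 at the lowest labelled dose, 8.43, 8.33 and 8.52 at the middle and 8.62, 8.43 and 8.44 at the highest. The changes were 0.17 (95% interval -0.05 to 0.38, adjusted p = 1, 0% of genes called), 0.24 (0.02 to 0.46, adjusted p = 1, 0.00713% called) and 0.31 (0.09 to 0.53, adjusted p = 0.347, 0.25% called). At the upper doses all 3 experiments lay above the untreated arrays without overlap. No call was made, and how many other genes were without overlap is not given, so this does not show a rise. CXCL8, which encodes the chemokine interleukin-8, had the largest change at the highest dose (0.72) and was not called.

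At 24 h both spindle poisons raised GDF15 at every labelled dose. With colcemid the arrays read 10.24, 10.48 and 10.19 at the lowest dose, 9.96, 10.09 and 9.97 at the middle and 10.05, 10.04 and 10.04 at the highest. All lay far above the untreated arrays, whose highest was 7.95. The rise was 2.43 (5.37-fold, SE 0.0811, adjusted p = 1.48e-14) with 37.3% of genes called, then 2.13 (4.36-fold, 9.55e-14) with 37.7% and 2.16 (4.48-fold, 8.07e-14) with 36.4%. Its rank by size of rise was 7, 12 and 7, and CYP4F3 led at all 3 doses (4.68, 4.90 and 4.30).

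With vincristine at 24 h the arrays read 9.75, 10.03 and 9.84 at the lowest dose, 9.87, 9.85 and 9.92 at the middle and 9.75, 9.70 and 9.51 at the highest. The groups again did not overlap the untreated arrays. The rise was 2.18 (4.55-fold, SE 0.105, adjusted p = 1.57e-12) with 37.4% of genes called, then 2.19 (4.57-fold, 1.18e-12) with 36.9% and 1.96 (3.9-fold, 5.51e-12) with 35.7%. Its rank by rise was 8, 3 and 6. The first experiment rose most at each dose (2.38, 2.50 and 2.38), and its untreated array was the lowest of its group (7.37).

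No step between labelled doses was called for either spindle poison. For colcemid at 24 h the middle minus the lowest dose was -0.30 (95% interval -0.47 to -0.13, adjusted p = 0.232, 0.207% of genes called), lower in all 3 experiments, and the highest minus the middle 0.04 (adjusted p = 0.891, 6.87% called). For vincristine at 24 h the steps were 0.01 (adjusted p = 0.986, 5.03% called) and -0.23 (95% interval -0.45 to -0.01, adjusted p = 0.83, 0% called). At 4 h the colcemid steps were 0.04 and 0.06 (adjusted p = 1 for each, 0% and 0.264% of genes called) and the vincristine steps 0.08 and 0.07 (adjusted p = 1 for each, 0% and 0.00713% called). The 6 rises at 24 h lay between 1.96 and 2.43, and the highest dose was not tested against the lowest.

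Colcemid, a colchicine derivative, and vincristine, a vinca alkaloid, bind tubulin at different sites, and their labelled doses match. The difference of their changes, colcemid minus vincristine, was tested in 6 pairs, and none was called. At 4 h it was -0.12, -0.15 and -0.16 from the lowest to the highest dose, with 95% intervals of -0.40 to 0.16, -0.43 to 0.12 and -0.44 to 0.12. The p-values adjusted over the 6 pairs were 0.46, 0.399 and 0.399, and 0%, 0% and 0.057% of genes were called. At 24 h it was 0.24 (-0.04 to 0.52), -0.07 (-0.34 to 0.21) and 0.20 (-0.08 to 0.48), with 0.399, 0.635 and 0.399 adjusted over the pairs and 0.834%, 6.14% and 2.02% of genes called. The intervals reach 0.52 at most, against rises of 1.96 to 2.43, and do not show that the drugs act alike.

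The later change was larger than the earlier one in most pairs of times. The change at 24 h minus the change at 4 h was called higher in 13 of 15 pairs and lower in 1. For MMS it was 1.47, 2.80 and 2.92 from the lowest to the highest dose (SE 0.0852 each), with 15.9%, 33.7% and 45.2% of genes called. For EMS it was 1.62, 2.12 and 3.29 (SE 0.084 each), with 10.8%, 20.2% and 38.3% called, and for both alkylating agents the values lay in the order of dose. For colcemid it was 2.38, 2.04 and 2.02 (SE 0.115, 25.2%, 26.4% and 22.5% called), and for vincristine 2.02, 1.95 and 1.65 (SE 0.149, 25.3%, 23.9% and 22.4% called).

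Formaldehyde differed by dose in this respect. The change at 24 h minus that at 4 h was -0.37 at 50 µM (adjusted p = 0.739, 0.0357% of genes called) and -0.85 at 100 µM (SE 0.181, adjusted p = 0.00122, 26.6% called), so the 100 µM rise was smaller at the later time in all 3 experiments. At 200 µM it was 2.69 (adjusted p = 7.34e-11, 53.3% called). In signal, the 100 µM group went from 10.57 at 4 h to 9.30 at 24 h, and the 200 µM group from 9.62 to 11.89.

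The suffix _x_at of the bright probe set is the manufacturer's mark for probes that in part resemble other sequences, and _s_at marks probes shared by several transcripts; how far this touched the GDF15 signal was not tested. The other probe sets were dim and moved less. 229868_s_at had a mean of 6.30 and a range of 5.90 to 6.83, and 86 of 120 arrays reached the limit of brightness. 221576_at had a mean of 6.03 and a range of 5.56 to 6.58, and 16 arrays reached it. Across the 120 arrays, which share 40 groups, their values correlated with those of 221577_x_at at r = 0.70 and r = 0.54. Both moved in the same direction as the bright probe set where they were called: 229868_s_at was called higher in 8 of 30 comparisons, with changes from -0.06 to 0.62, and 221576_at in 2 of 30, with changes from -0.15 to 0.37, and neither was called lower.

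The largest changes of 229868_s_at were those of 100 µM formaldehyde at 4 h (0.62), 4 mM EMS at 24 h (0.55) and 200 µM formaldehyde at 4 h (0.52). 221576_at was called for 2 mM (0.31) and 4 mM EMS (0.37) at 24 h. With the mean of all 3 probe sets in place of the brightest, the rise was 2.109 for 4 mM EMS at 24 h, 1.958 for 320 µM MMS and 1.495 for 200 µM formaldehyde at 24 h, all called. The fold changes of GDF15 are thus those of 1 probe set. The same 23 comparisons were called higher with the mean, but the mean includes the bright probe set and is not a separate check of it.

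CDKN1A, which encodes the cell cycle inhibitor p21, followed GDF15 most closely over the 40 group means, with a Pearson r of 0.977. Next were ANKRA2, an ankyrin repeat protein gene (0.968), TP53INP1, a stress-induced nuclear protein gene (0.961), LIF, an interleukin-6 family cytokine (0.959), BTG1, which restrains proliferation (0.958), and BLOC1S2, a subunit of lysosome-related trafficking complexes (0.948). XPC, the damage sensor of nucleotide excision repair (0.948), and TXNIP, which binds thioredoxin (0.945), completed the 8 highest. These correlations are descriptions: the points share untreated cells, arrays and normalization, and the median r over 14022 genes was -0.076 and the 95th percentile 0.716. By rank correlation 7 of these 8 stayed among the 8 highest, and with each set and time centred 4 did. The lowest r were those of PUM3, a nucleolar RNA-binding protein gene (-0.907), and SMARCA4, a chromatin remodeller gene (-0.904).

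**Figure D3:**
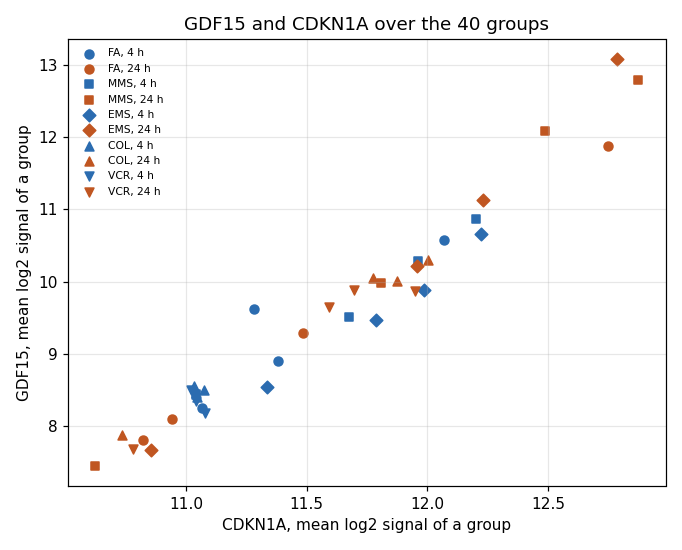
Mean log2 signal of GDF15 (vertical axis) against that of CDKN1A (horizontal axis) in the 40 groups, with 1 point for each group of 3 arrays, symbols for the chemical and colours for the time (blue 4 h, orange 24 h). The points form 1 band (Pearson r = 0.977) from untreated MMS cells at 24 h, with a GDF15 signal of 7.46, to 4 mM EMS at 24 h, with 13.08, and 200 µM formaldehyde at 4 h (GDF15 9.62) lies above it.

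The likeness differed between the 4 h groups and the 24 h groups for some genes of the DNA damage response. MDM2, a ubiquitin ligase gene, had an r of 0.415 over the 20 groups at 4 h and 0.983 over the 20 at 24 h. PPM1D, a phosphatase gene of that response, had 0.72 and 0.972, and CDKN1A 0.956 and 0.987. ATF3, a stress-induced transcription factor, had 0.882 and 0.953, and DDIT3 0.774 and 0.907. ATF4 itself had an r of 0.303 over all 40 groups, but 0.744 at 4 h and 0.538 at 24 h. EGR1, an early response factor, had 0.427 over all groups, 0.574 at 4 h and 0.298 at 24 h. FURIN, a protease that cleaves precursors of secreted proteins, had 0.003, 0.208 and -0.07 in that order. In 1 of the 4 h groups, 200 µM formaldehyde, MDM2 (-0.96) and PPM1D (-0.98) fell while GDF15 rose by 1.38. Their r at 4 h without that group was not calculated, so a general dependence on time is not shown.

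Of 37 tested genes of the DNA damage response, a list from which GDF15 was left out, most rose wherever GDF15 rose at 24 h. At the highest doses at 24 h, 34 rose and 0 fell with 200 µM formaldehyde (median change 1.45), 33 and 1 with 320 µM MMS (1.66) and 34 and 0 with 4 mM EMS (1.54), against median changes of -0.025, -0.039 and -0.015 over all genes tested, of which 47.7%, 58.5% and 51.5% were called in either direction. These shares and medians are the background for the other gene lists in the same comparisons. With the highest dose of colcemid and vincristine 33 and 29 rose and 0 fell (0.52 and 0.45, against -0.002 and -0.001 over all genes, of which 36.4% and 35.7% were called). At 4 h of these drugs 0 or 1 were called. TP53INP1 rose by 3.39, 3.32 and 3.54 at the highest dose of formaldehyde, MMS and EMS at 24 h, TP53I3 by 3.39, 4.56 and 4.48, and FUCA1, a lysosomal fucosidase gene, by 4.12, 3.09 and 3.58. GDF15 rose more than every tested member of the list in 16 of the 23 comparisons in which it was called. No member had a larger change than GDF15 in 20 of all 30 comparisons.

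The same list was also called at 4 h of the alkylating agents. With MMS 13, 27 and 27 of the 37 rose from the lowest to the highest dose and 0 fell (median change 0.18, 0.31 and 0.43), where 1.6%, 13.5% and 28.6% of all genes were called, and with EMS 9, 21 and 29 rose and 0 fell (0.19, 0.26 and 0.39), where 0.143%, 1.06% and 9.6% were. The median change over all genes lay between -0.004 and 0.004 in these 6 comparisons. At 1 mM EMS, where 20 genes in all were called, CDKN1A rose by 0.45 (adjusted p = 9.12e-07) and PPM1D by 0.59 (8.92e-06), each less than GDF15.

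Formaldehyde at 4 h moved the DNA damage response list in both directions. At 100 µM 31 of 37 rose and 1 fell (median change 0.50), at 200 µM 13 rose and 10 fell (0.05), and in the direct comparison of 200 with 100 µM 1 was higher and 28 were lower (-0.42). Of all genes, 40.7%, 53.8% and 34.9% were called in these 3 comparisons. At 200 µM MDM2 changed by -0.96, PPM1D by -0.98 and SESN2, a stress-induced antioxidant regulator, by -0.29, while CDKN1A rose by 0.21 and GDF15 by 1.38. In the step from 100 to 200 µM GDF15 (-0.95), CDKN1A (-0.79), MDM2 (-1.46), PPM1D (-2.42) and SESN2 (-1.69) all fell, and ATF3 rose by 0.61. ATF3 was not typical of the 29 tested genes of the ATF4 and CHOP arm, of which 4 were higher and 18 lower in that step. The arm's median change was -0.29, against 0.046 over all genes. No test compared GDF15 with these genes.

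The ATF4 and CHOP arm held 29 tested genes of the integrated stress response. At 4 h of MMS 11, 22 and 25 of them rose and 0, 1 and 2 fell, with medians of 0.15, 0.44 and 0.74, beside 1.6%, 13.5% and 28.6% of all genes called. With EMS at 4 h 2, 7 and 23 rose and 0 fell, beside 0.143%, 1.06% and 9.6%. At 24 h of 1 mM EMS, by contrast, 2 rose and 14 fell (median -0.11, against 0.012 over all genes, of which 24.3% were called) while GDF15 rose by 2.55, and at 24 h of 80 µM MMS 7 rose and 9 fell (-0.02, against -0.008 and 28.5%) while GDF15 rose by 2.52. At the highest doses at 24 h, 21 rose and 5 fell with 200 µM formaldehyde (median 0.47) and with 4 mM EMS (0.41). With 320 µM MMS 14 rose and 6 fell (0.14). With the highest colcemid dose at 24 h 13 rose and 8 fell (0.10), beside 36.4% of all genes called. With the highest vincristine dose 16 rose and 7 fell (0.23), beside 35.7%.

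Within this arm ATF3 rose at both times with the highest dose of formaldehyde, MMS and EMS. It rose by 2.89 with 200 µM formaldehyde at 4 h and by 3.21 at 24 h, by 2.45 and 3.42 with 320 µM MMS, by 1.60 and 2.92 with 4 mM EMS, and by 1.62 and 1.49 at 24 h of the highest colcemid and vincristine dose. DDIT3 rose by 1.41 and 2.35, by 1.74 and 3.14, by 0.47 and 2.86, and by 0.69 and 0.79 in the same comparisons. ATF4 rose by at most 0.68 in them, at 4 h of 320 µM MMS. At 4 h of 200 µM formaldehyde, however, 10 of the arm's 29 tested genes rose and 15 fell. The arm's median change there was -0.14, against 0.078 over all genes, of which 53.8% were called. GDF15 rose more than every tested member of the arm in 20 of the 23 comparisons in which it was called. No member had a larger change than GDF15 in 25 of all 30 comparisons. SESN2 belongs to both lists.

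**Figure D4:**
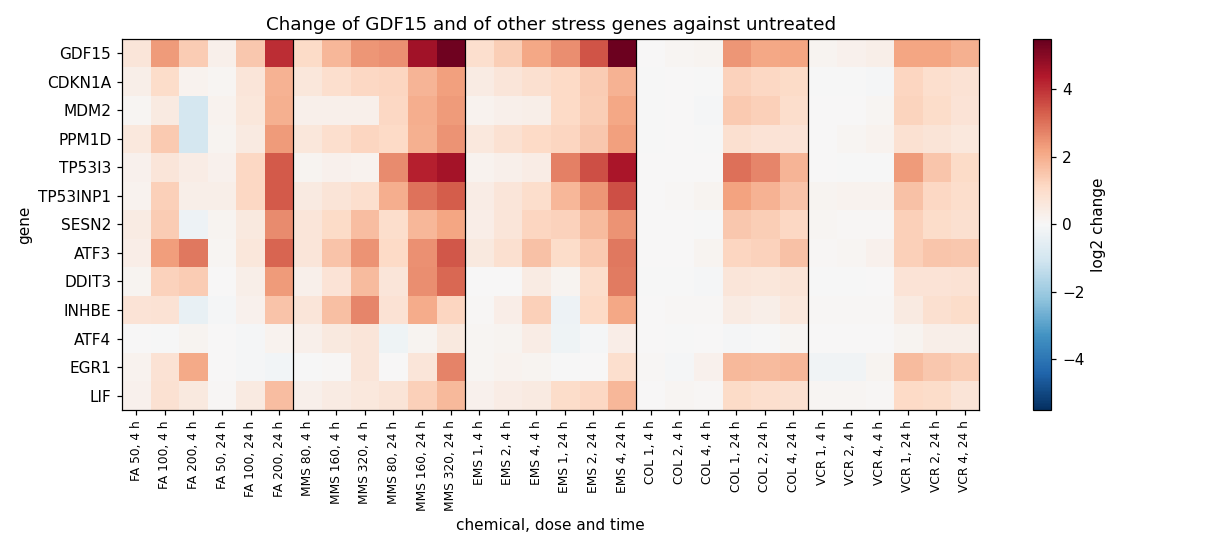
Log2 change against untreated cells (colour, red higher and blue lower) of GDF15 and 12 other stress genes (rows) in the 30 comparisons of chemical, dose and time (columns). GDF15 is 0.65 or higher except for colcemid and vincristine at 4 h and 50 µM formaldehyde at 24 h. There it is 0.31 at most. MDM2 (-0.96) and PPM1D (-0.98) are blue at 4 h of 200 µM formaldehyde, and ATF4 lies between -0.23 and 0.68.

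No tested kinase acting on eIF2alpha rose more than GDF15 in the 23 comparisons in which GDF15 was called. Over all 30 comparisons this held in 27. Of 7 tested kinases and partners that act on the translation factor eIF2alpha, 2 rose and 2 fell with 200 µM formaldehyde at 24 h, 2 and 1 with 320 µM MMS and 3 and 2 with 4 mM EMS, which is near the 47.7%, 58.5% and 51.5% of all genes called. EIF2AK4, a sensor of amino acid shortage, rose by 0.87, 0.56 and 0.56, and OMA1, a mitochondrial stress protease gene, fell (-0.78, -0.66 and -0.56).

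Other factors reported to act on GDF15 numbered 19 tested genes, of which 11 rose and 3 fell with 200 µM formaldehyde at 24 h, 11 and 3 with 320 µM MMS, 10 and 4 with 4 mM EMS, 11 and 4 with the highest colcemid dose and 10 and 3 with the highest vincristine dose. Of all genes, 47.7%, 58.5%, 51.5%, 36.4% and 35.7% were called in these comparisons, and the list's median changes were 0.28, 0.30, 0.17, 0.12 and 0.18. STAT3 rose by 1.33, 1.29, 1.35, 0.60 and 0.47 in that order, and JUN, a part of AP-1, by 1.46, 1.80, 0.79, 1.53 and 1.75. EGR1 rose by 2.73 with 320 µM MMS, 0.92 with 4 mM EMS, 1.84 with colcemid and 1.36 with vincristine, and its value with 200 µM formaldehyde at 24 h was -0.15, not called. At 4 h of 200 µM formaldehyde EGR1 rose by 2.09 and JUN by 2.28, both more than GDF15, but of the 19 genes 7 rose and 9 fell. The list's median change there was -0.06, against 0.078 over all genes, of which 53.8% were called. MYC, also of this list, fell there (-1.39) and at 24 h of 320 µM MMS (-1.86), 4 mM EMS (-1.01) and the highest colcemid dose (-0.17). At 24 h it was not called with 200 µM formaldehyde (-0.09) or the highest vincristine dose (-0.10).

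Of 7 tested genes for the receptor and for processing, 0 to 3 rose and 0 or 1 fell in any of the 30 comparisons. With 320 µM MMS at 24 h 3 rose and 1 fell, near the 58.5% of all genes called there. FURIN was called in none of the comparisons at the highest doses, with changes from -0.15 to 0.15. RET, the co-receptor, was dim, with a highest signal of 6.89. SPPL2A, an intramembrane protease gene, rose at 24 h with the highest dose of every chemical. The rises were 0.77 with formaldehyde, 0.29 with MMS, 0.28 with EMS, 0.58 with colcemid and 0.50 with vincristine. At 4 h it fell with 160 and 320 µM MMS (-0.18 and -0.28). BMP1, a procollagen protease gene, rose by 0.35, 0.47 and 0.48 with the highest dose of formaldehyde, MMS and EMS at 24 h. GFRAL was not analysed here.

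Of 21 tested other ligands of the TGF-beta family, 2 rose at 24 h of the highest dose of each chemical, and 4, 6, 3, 2 and 1 fell with formaldehyde, MMS, EMS, colcemid and vincristine, beside 47.7%, 58.5%, 51.5%, 36.4% and 35.7% of all genes called. With 200 µM formaldehyde at 4 h 7 rose and 2 fell, beside 53.8% of all genes called. INHBE, which encodes the inhibin beta E subunit and also belongs to the ATF4 arm, rose by 1.58 with formaldehyde, 1.18 with MMS, 2.12 with EMS, 0.59 with colcemid and 1.03 with vincristine. BMP2, a bone morphogenetic protein, rose by 1.47, 1.29, 1.15, 0.61 and 0.81. At 4 h of 320 µM MMS INHBE rose by 2.68, more than GDF15 (2.42), and at 4 h of 200 µM formaldehyde it changed by -0.42. TGFB1 fell at 24 h in all 5 (-0.72, -0.76, -0.19, -0.29 and -0.33). No member of the list was above GDF15 in 21 of the 23 comparisons in which GDF15 was called. Over all 30 comparisons this held in 24.

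Of 20 tested receptors and SMADs of the family, 9 rose and 3 fell with 200 µM formaldehyde at 24 h, 10 and 5 with 320 µM MMS and 11 and 4 with 4 mM EMS, beside 47.7%, 58.5% and 51.5% of all genes called. The list's median changes were 0.10, 0.10 and 0.18. SMAD5, which carries bone morphogenetic protein signals, rose by 1.28, 1.79 and 1.60, the receptor gene TGFBR1 by 1.00, 1.39 and 1.24, and the inhibitory SMAD7 by 1.56, 0.72 and 0.66. SKIL, which represses SMAD targets, fell in them (-0.43, -0.80 and -1.23). At 4 h of 200 µM formaldehyde 14 of the 20 fell and 4 rose (median -0.55, against 0.078 over all genes, of which 53.8% were called).

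Of 17 tested genes for other secreted stress proteins, 10 rose and 4 fell with 200 µM formaldehyde at 24 h, 2 and 10 with 320 µM MMS, 3 and 8 with 4 mM EMS and 9 and 3 with the highest dose of either spindle poison, beside 47.7%, 58.5%, 51.5%, 36.4% and 35.7% of all genes called. The list's median changes in that order were 0.49, -0.33, -0.23, 0.45 and 0.21. LIF rose in all 5 (1.70, 1.78, 1.82, 0.88 and 0.71). IL6, the inflammatory cytokine interleukin-6, rose by 0.92 with formaldehyde, 1.47 with colcemid and 2.14 with vincristine and fell with MMS (-1.30) and EMS (-0.25). CCL4, a chemokine gene, likewise rose by 0.49, 1.86 and 1.87 and fell with MMS (-1.36) and EMS (-0.73). GDF15 rose in each of these comparisons.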

How the data were processed

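Total RNA of TK6 cells was hybridized to 120 arrays in 40 groups of 3, and the authors deposited 1 log2 signal for every probe set, for which the submitters' processing notes name RMA; whether all arrays were normalized together is not given in the sources used here. Of 54675 probe sets, 41091 named a single gene (1801 named several, 11721 none, 62 are controls), and 41037 of them matched the RefSeq table of GRCh38.p14. Where several probe sets named 1 of the 19775 genes, the one with the highest mean stood for it. The 14023 genes with at least 3 arrays at or above 6.183, the median of all probe set means, were tested. No 2 arrays were identical, the highest correlation between arrays was 0.99878, and the number of arrays limits the precision.

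Each chemical's 24 arrays formed one fit of 8 group means in limma 3.58.1 (R 4.3.3), and colcemid and vincristine were compared in a fit of their 48 arrays. Two-sided moderated tests were adjusted by Benjamini and Hochberg over all genes within each comparison; called means an adjusted p under 0.05. Shares of genes called are over all 14023. The labels' experiment number was taken to pair arrays: deviations of same-numbered arrays had a mean correlation from -0.132 to 0.509 (median 0.2855) over the 30 comparisons, above 0 in 29, while that of other-numbered arrays had a median of -0.141, and in 19 comparisons every pair was over 0.1. The fit was tested on simulated data of 14023 genes: for 50 µM formaldehyde at 4 h it recovered 91% of changes of 0.5 log2 units and 100% of changes of 1, with 10 false calls, and for 4 mM EMS at 24 h 95% and 100%, with 14 false calls.

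GDF15, the gene lists and the named genes were chosen with earlier results of these data known. The named genes were those most and least like GDF15, the leading gene of each highest-dose comparison, up to 4 members of each list with the largest changes at the highest doses, and a fixed panel. Genes whose groups overlap or whose lists rose together were described, not tested as sets. Alternatives were the experiment as a block, no filter, the mean of probe sets, repeated quantile normalization, median centring, all arrays in one fit and each experiment left out; leaving out the outlying untreated formaldehyde array was added after seeing the data. Promoter sequence came from the RefSeq table and was read with python 3.11.15 (numpy 2.4.6, pandas 2.3.3, scipy 1.17.1, matplotlib 3.10.9). One item and the results that need it are not reported here.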

Additional observations from a re-analysis of the deposited data

Results flagged for a closer look

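The change of GDF15 against untreated cells differed between 24 h and 4 h in 14 of 15 pairs of chemical and dose, by the limma test of the difference itself. The change at 24 h minus that at 4 h was -0.85 for 100 µM formaldehyde, the only one of these below 0, and 2.69 for 200 µM formaldehyde. It was 1.47, 2.80 and 2.92 for MMS and 1.62, 2.12 and 3.29 for EMS, from the lowest to the highest dose. It was 2.38, 2.04 and 2.02 for colcemid and 2.02, 1.95 and 1.65 for vincristine. Untreated GDF15 was itself lower at 24 h than at 4 h in all 5 sets, and that untreated difference has been subtracted in these values. The difference in level between times, from which the untreated difference was not subtracted, was -1.27 for 100 µM formaldehyde and 2.27 for 200 µM. The cause of the different course at the 2 formaldehyde doses was not tested.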

How the results depend on the processing

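Of 76 comparisons of GDF15, all 76 kept their direction and their side of the threshold with the experiment as a block, without the filter on dim genes, with repeated quantile normalization and with median centring. With the mean of the 3 probe sets the untreated difference between times was -0.058 in the formaldehyde set and -0.158 in the vincristine set, and the step from 1 to 2 mM EMS at 4 h was 0.156, none of them called. With all arrays in one fit that step was 0.409 and no longer called (adjusted p = 0.308). Without each experiment in turn, the rise with 50 µM formaldehyde at 4 h was 0.505 to 0.771, the untreated difference of the formaldehyde set -0.534 to -0.362 and the EMS step 0.359 to 0.497, and the calls of the first and last were lost each time. Without the array of experiment 3 among untreated formaldehyde-set cells at 4 h, the rise with 50 µM was 0.660 (adjusted p = 0.0634). Among the genes most like GDF15, 4 of the 8 stayed with each set and time centred. The pooled untreated difference lay between -0.723 and -0.581 without each set. The cause of these shifts was not tested.

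Over all genes, the count called at 4 h moved by over 1.5 times with the settings: 25 to 642 for 50 µM formaldehyde (115), 140 to 461 for 80 µM MMS (225), 12 to 66, 114 to 321 and 1057 to 2062 for EMS (20, 148 and 1346), 3 to 12 and 83 to 278 for the middle and highest colcemid dose (9 and 128), and 1 to 3 and 21 to 110 for the same vincristine doses (1 and 35). At 24 h of 100 µM formaldehyde it was 406 to 1142 (534). The dim probe sets 229868_s_at and 221576_at reached the limit of brightness in 86 and 16 of 120 arrays, which limits what they can show.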
